A study of Sus scrofa with 36 samples.

Results

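The adrenal cortex turns cholesterol into cortisol through a short chain of proteins, and the 10 genes of that chain were STAR, CYP11A1, HSD3B1, CYP17A1, CYP21A2, CYP11B1, FDX1, FDXR, POR and CYB5A. Their probes were found on the array by gene name or, failing that, by RefSeq transcript, which gave 41 probes for 9 of the 10 genes, among 11143 genes with a symbol and a probe in the value table. No probe was assigned to CYP11B1, the enzyme of the last step to cortisol. Each of the 41 probes was well above background on all 36 arrays, and none was saturated. The measurement was the log2 fluorescence intensity of each probe in 1 adrenal gland sample per pig on a 1-colour Agilent array, so that a difference of 1 is a doubling of the signal.

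The 36 pigs were castrated males of the Creole breed (CR), the Large White breed (LW) and the cross of Large White with Creole (F1). In each breed 6 pigs were killed under thermoneutral conditions (TN, 24 °C) and 6 after heat stress (HS), which the sample labels give as 30 °C and the study's text as 32 °C, for 4 to 5 days. All of them entered the climatic room at 11 weeks of age, and the TN pigs were killed before the temperature was raised, so that temperature and slaughter day cannot be told apart. The pigs of a breed were taken as blocks of littermates, spread over pens of their own breed, so that littermates were present at both temperatures. Litter, pen and slaughter day were not given per pig, so the litter could not be taken into account in comparing HS with TN. The p-values therefore measure the spread between these pigs, and a difference between breeds cannot be told apart from one between the few litters that stood for each.

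In the cortical cell STAR carries cholesterol to the inner mitochondrial membrane, where CYP11A1 cuts its side chain to give pregnenolone. HSD3B1 turns pregnenolone and its 17-hydroxylated form into progesterone and its 17-hydroxylated form, CYP17A1 adds the 17-hydroxyl group, and CYP21A2 adds the 21-hydroxyl group of 11-deoxycortisol, which CYP11B1 converts to cortisol. Electrons reach the mitochondrial enzymes through ferredoxin (FDX1) and its reductase (FDXR) and the microsomal ones through POR, and cytochrome b5 (CYB5A) favours the lyase activity of CYP17A1 that leads to androgens. Pituitary ACTH, acting through its receptor MC2R and with the nuclear receptor NR5A1, is the main control of the chain.

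The genes lie apart in the Sscrofa11.1 assembly, in the RefSeq annotation. STAR lies on chromosome 15 from 48377597 to 48385398, CYP11A1 on chromosome 7 from 59172829 to 59188479 and HSD3B1 on chromosome 4 from 101565229 to 101574110. CYP17A1 lies on chromosome 14 from 113805616 to 113820445, and CYP21A2, on chromosome 7 from 24086138 to 24089364. The electron carriers FDX1 (chromosome 9, from 38376147 to 38399026), FDXR (chromosome 12, from 6372224 to 6382769), POR (chromosome 3, from 10212734 to 10272184) and CYB5A (chromosome 1, from 149737584 to 149773222) are on other chromosomes. Where in each transcript a probe binds was not determined here.

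Probes of a gene are numbered here from the brightest. HSD3B1, with the largest difference between breeds, is read by 2 probes with no run of more than 6 bases in common, so that its result comes from separate stretches of the transcript, whereas some other probes of a gene repeat each other. The first 30 of the 60 bases of the HSD3B1 probes, of a STAR pair with identical sequences and of a CYP21A2 pair with 53 bases in common are printed below, with capitals for bases shared with the other probe of the pair as part of that common run.
HSD3B1 probe 1: tgctggaaatagtgagcttcctgctgagtc
HSD3B1 probe 2: tgcaggagatccgggtactagacaaagtct
STAR probe 5: CACACCATGGTTTTGAGTTTGATTATAATT
STAR probe 6: CACACCATGGTTTTGAGTTTGATTATAATT
CYP21A2 probe 3: acctgatGAAAACTTGGGAGCACTGGTCCA
CYP21A2 probe 4: GAAAACTTGGGAGCACTGGTCCATCCAAAT
With the STAR pair and one pair of CYP11A1 that was also identical, the 41 probes held 39 different sequences. The other pairs with a common run of at least 15 bases on the same strand were STAR probes 1 and 3, CYP11A1 probe 2 with probes 3 and 4, CYP17A1 probes 2 and 3, and CYP21A2 probes 1 and 2. STAR probes 9 and 10 share 40 bases on opposite strands, so that 1 of them cannot read the STAR transcript, and probe 10, the dimmer of them, is left out of the STAR counts below. The strand of a probe was otherwise not determined here. The probes of a gene mostly ranked the pigs alike, with a median Pearson correlation over the 36 pigs, between probes of one gene, of 0.97 for CYB5A, 0.92 for CYP21A2, 0.88 for STAR, 0.79 for CYP11A1 and 0.49 for POR, and a single value of 0.96 for HSD3B1. In POR the brightest probe stood apart, with correlations of 0.22 to 0.35 with the other 3 probes. The brightest CYP11A1 probe did so too, at 0.34 to 0.61 with the other 5, which correlated with each other at 0.73 to 0.94.

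Each of the 5 slides held as many TN as HS arrays and pigs of all 3 breeds, and 42436 to 48060 of the 60305 probes were well above background per array. All markers with a probe were well above background on all arrays, both those of steroid-making cortex outside the chain (MC2R, MRAP, NR5A1, SCARB1 and INHA) and those of the adrenaline-making chromaffin cells (6 of 8 with a probe), so the samples held cortex and medulla. Fewer cells of a type and less RNA per cell cannot be told apart in such samples. Marker levels are given below beside the differences they accompany.

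**Figure D1:**
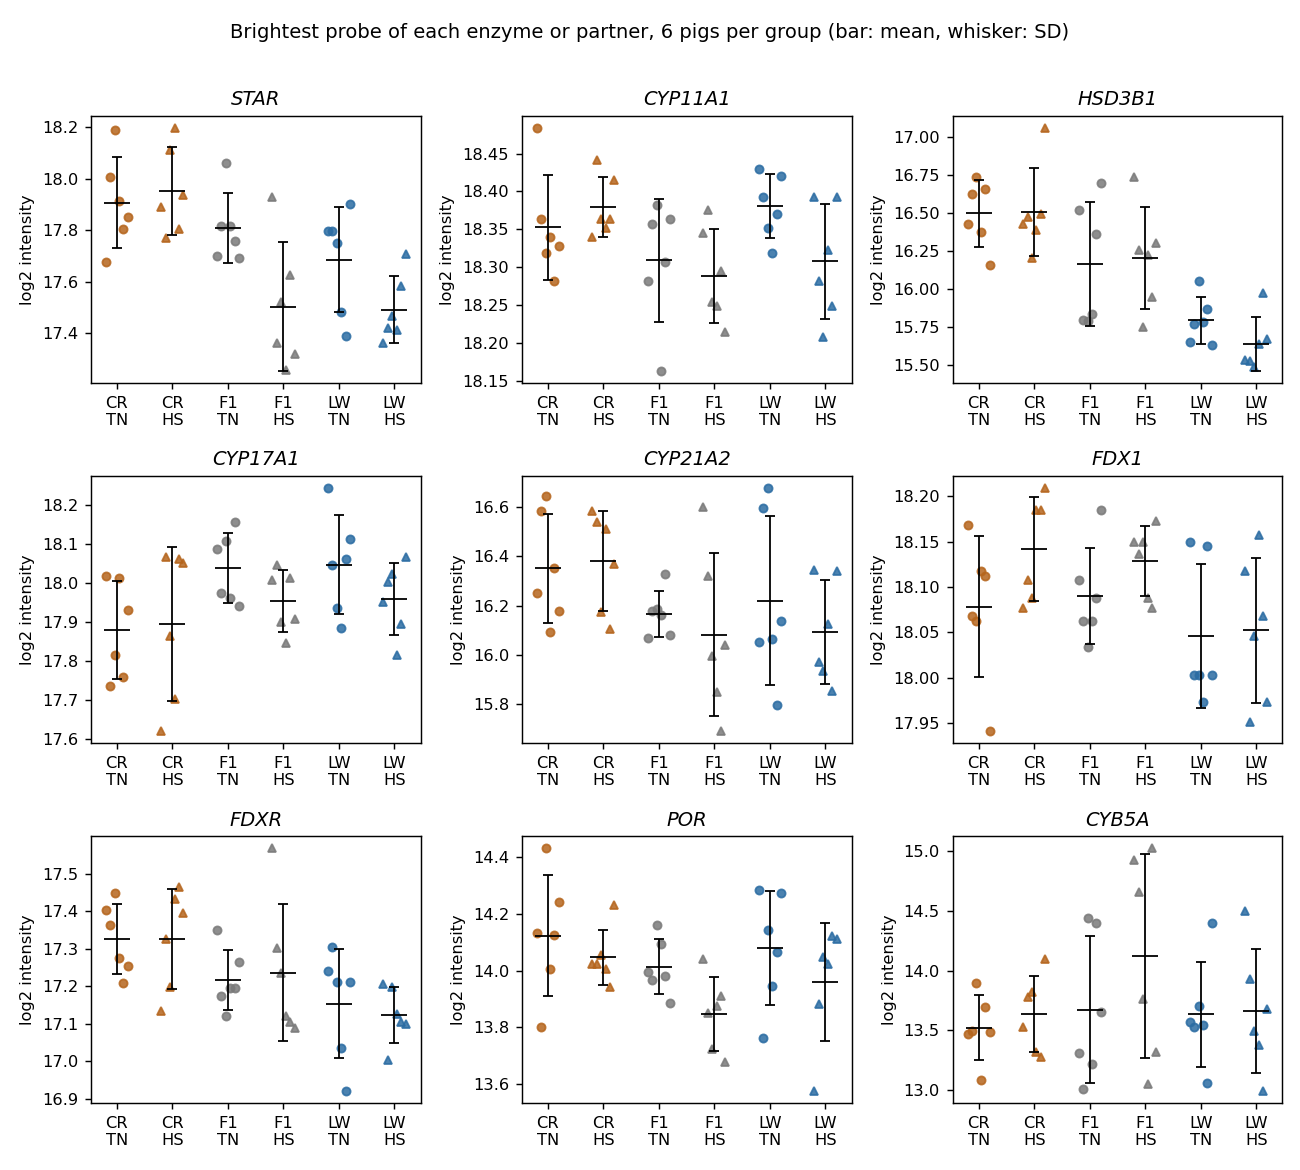
The log2 intensity of the brightest probe of the 9 genes is plotted for each pig (circles TN, triangles HS) in the 6 groups, with a bar for the mean and whiskers for the SD of 6 pigs. HSD3B1 steps down from Creole (mean 16.50) through the cross (16.19) to Large White (15.72), and CYB5A is widest in the cross.

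The clearest difference was that between the breeds in HSD3B1. In Creole pigs the log2 intensity of its brightest probe ran from 16.16 to 16.74 at TN, with a median of 16.53, and from 16.20 to 17.06 at HS, with a median of 16.45. In Large White pigs it ran from 15.64 to 16.06 at TN (median 15.78) and from 15.49 to 15.97 at HS (median 15.59). The cross pigs covered 15.79 to 16.70 at TN (median 16.10) and 15.75 to 16.74 at HS (median 16.24). All 12 Creole pigs were thus above the highest Large White pig, and the cross overlapped with both. By group mean the order was Creole at HS (16.51) and TN (16.50), the cross at HS (16.20) and TN (16.17), and Large White at TN (15.80) and HS (15.64), and each group overlapped in range with its neighbours in that order.

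Large White minus Creole, HSD3B1 differed by -0.78 on the log2 scale (SE 0.11, 12 pigs against 12), a level 1.72-fold lower in Large White, with a 95% interval of 0.50 to 0.68 for the ratio (adjusted p = 5.78e-06 from limma). The second probe gave Creole values of 13.81 to 14.81 with a median of 14.26, and Large White values of 13.14 to 13.88 with a median of 13.43. Its difference was -0.89 (SE 0.12, adjusted p = 4.34e-06 from limma), and 11 of 12 Large White pigs were below the lowest Creole pig. The brightest probe was lower in Large White on all 5 slides, by -0.92 to -0.69, and it stayed past the threshold with any slide or any pig left out (adjusted p from 2.33e-06 to 0.000581 over all alternatives, limma). The cross differed from the mean of its parent breeds by 0.08 (SE 0.09, adjusted p = 0.84 from limma), with 9 of 12 cross pigs between the parental means.

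Over the whole chain, 15 of the 41 probes, of 5 genes, passed an adjusted p of 0.05 for a difference between the 3 breeds, against 10.6% of all 45348 probes. Large White minus Creole, 16 of 41 probes of 6 genes passed (39.0% of them), against 11.5% of all probes. All 16 were lower in Large White, a call that 5.50% of all probes had, while 5.98% of all probes were called higher there and none of the 41 was. The median log2 difference was -0.18 over the 41 probes and 0.00 over all probes, with 30 of the 41 below 0 beside 50.1% of all probes. These 41 are probes of 9 genes and repeat each other, and 8 of the 16 called were of STAR. A gene was counted above if any of its probes passed. By the brightest probe 3 of the 9 genes passed for Large White minus Creole, namely STAR, HSD3B1 and FDXR. Without STAR probe 10, left out after the data were seen, the same 16 passed of 40, and no count of calls among the members changed in any comparison. Without slide 3 the number of members called fell to 5, namely both probes of HSD3B1 and 3 of STAR, against 5.67% of all probes, and without slide 4 it was 10, none of them of CYP11A1, CYP21A2 or FDXR, against 8.36% of all probes. With the slide as a fixed block it was 20, against 13.9% of all probes.

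STAR, the cholesterol carrier, was lower in Large White than in Creole by all 9 of its probes counted here, and 8 of them passed. The brightest ran from 17.68 to 18.20 in the 12 Creole pigs, with a median of 17.90, and from 17.36 to 17.90 in the 12 Large White pigs, with a median of 17.53. All 12 Large White pigs were below the Creole mean, though 5 of them were within the Creole range. The difference was -0.34 (SE 0.08, 1.27-fold, adjusted p = 0.00296 from limma), and over the 9 probes it ran from -0.47 to -0.25. It was below 0 on all 5 slides, at -0.57 to -0.08, but without slide 3 it was -0.26 with an adjusted p of 0.085 from limma. The cross pigs ran from 17.26 to 18.06, with a median of 17.70.

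FDXR, the reductase that feeds FDX1, has a single probe. It ran from 17.13 to 17.47 in Creole (median 17.35), from 17.09 to 17.57 in the cross (median 17.20) and from 16.92 to 17.31 in Large White (median 17.16). Large White minus Creole it differed by -0.19 (SE 0.05, adjusted p = 0.013 from limma), with all 12 Large White pigs below the Creole mean. This call was lost with slide 2, 3, 4 or 5 left out (adjusted p of 0.065, 0.11, 0.082 and 0.075 from limma), at values from -0.19 to -0.16. FDX1 itself differed by -0.06 (SE 0.03, adjusted p = 0.25 from limma), with a 95% interval from -0.13 to 0.00, and its other 2 probes by -0.08.

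The probes of POR, which serves CYP17A1 and CYP21A2, disagreed. The brightest gave medians of 14.04 in Creole, 13.94 in the cross and 14.06 in Large White, and a difference, Large White minus Creole, of -0.06 (SE 0.07, adjusted p = 0.61 from limma). The other 3 probes were lower in Large White by -0.37 to -0.27 and all passed, probe 4 with the lowest adjusted p (0.00122 from limma). On probe 4 the log2 values ran from 7.79 to 8.25 in Creole and from 7.52 to 7.97 in Large White. With the mean of the 4 probes the difference was -0.25 (adjusted p = 0.00647 from limma).

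CYP21A2, the 21-hydroxylase, ran on its brightest probe from 16.09 to 16.65 in Creole (median 16.36), from 15.69 to 16.60 in the cross (median 16.12) and from 15.80 to 16.68 in Large White (median 16.10). The breeds overlapped, with 6 of 12 Large White pigs below the lowest Creole pig, and the difference of -0.21 (SE 0.10) did not pass (adjusted p = 0.17 from limma). Of the 4 probes, which differed by -0.33 to -0.15, probe 3 passed at the threshold (adjusted p = 0.046 from limma), and its near copy probe 4 did not (adjusted p = 0.053 from limma).

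For CYP11A1 and CYP17A1, the first cytochrome and the 17-hydroxylase, the brightest probes did not pass between breeds. The brightest CYP11A1 probe had medians of 18.36 in Creole, 18.30 in the cross and 18.36 in Large White, and its difference, Large White minus Creole, was -0.02 (SE 0.03, adjusted p = 0.75 from limma), with a 95% interval from -0.09 to 0.04. That interval is of the CYP11A1 probe that stood apart, and the other 5 probes lay below it. Of these, probe 6 passed at -0.25 (adjusted p = 0.035 from limma), and the rest, at -0.18 to -0.10, did not. With the slide as a fixed block 4 of the 6 CYP11A1 probes passed. CYP17A1 and CYB5A, its partner in the lyase reaction, had every probe above 0, at 0.04 to 0.17 for CYP17A1 and 0.07 to 0.27 for CYB5A, and none passed. The brightest CYP17A1 probe had medians of 17.90 in Creole, 17.99 in the cross and 18.01 in Large White, a difference of 0.12 (SE 0.05, adjusted p = 0.15 from limma). The brightest probe of CYB5A differed by 0.07 (SE 0.21, adjusted p = 0.89 from limma).

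Markers of other cells also differed between the breeds. Large White minus Creole, 4 of 5 adipocyte markers passed, all lower in Large White, and the fat-cell hormone ADIPOQ differed by -1.62. The mean log2 level of the adipocyte list ran from 8.66 to 9.91 in Creole, from 8.43 to 9.87 in the cross and from 8.28 to 8.99 in Large White. All 6 chromaffin markers measured were higher in Large White, and 3 of them passed, CHGA, CHGB and PNMT. The level of that list ran from 13.50 to 14.23 in Creole (median 13.72), from 13.66 to 14.38 in the cross (median 14.10) and from 13.38 to 14.48 in Large White (median 14.11). The 5 cortex markers outside the chain ran from 13.90 to 14.17 in Creole and from 13.78 to 14.17 in Large White, and none of them passed. Of the other lists, 1 of 4 zona glomerulosa markers (CYP11B2, at -0.37) and 1 of 3 macrophage markers (CSF1R, at -0.29) passed, both lower in Large White, and none of those of red blood cells or endothelium. Over the 3 breeds the counts were 3 adipocyte, 2 chromaffin and 2 macrophage markers, and none in the other lists. The part of these cells in the breed differences of the chain was not tested.

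**Figure D2:**
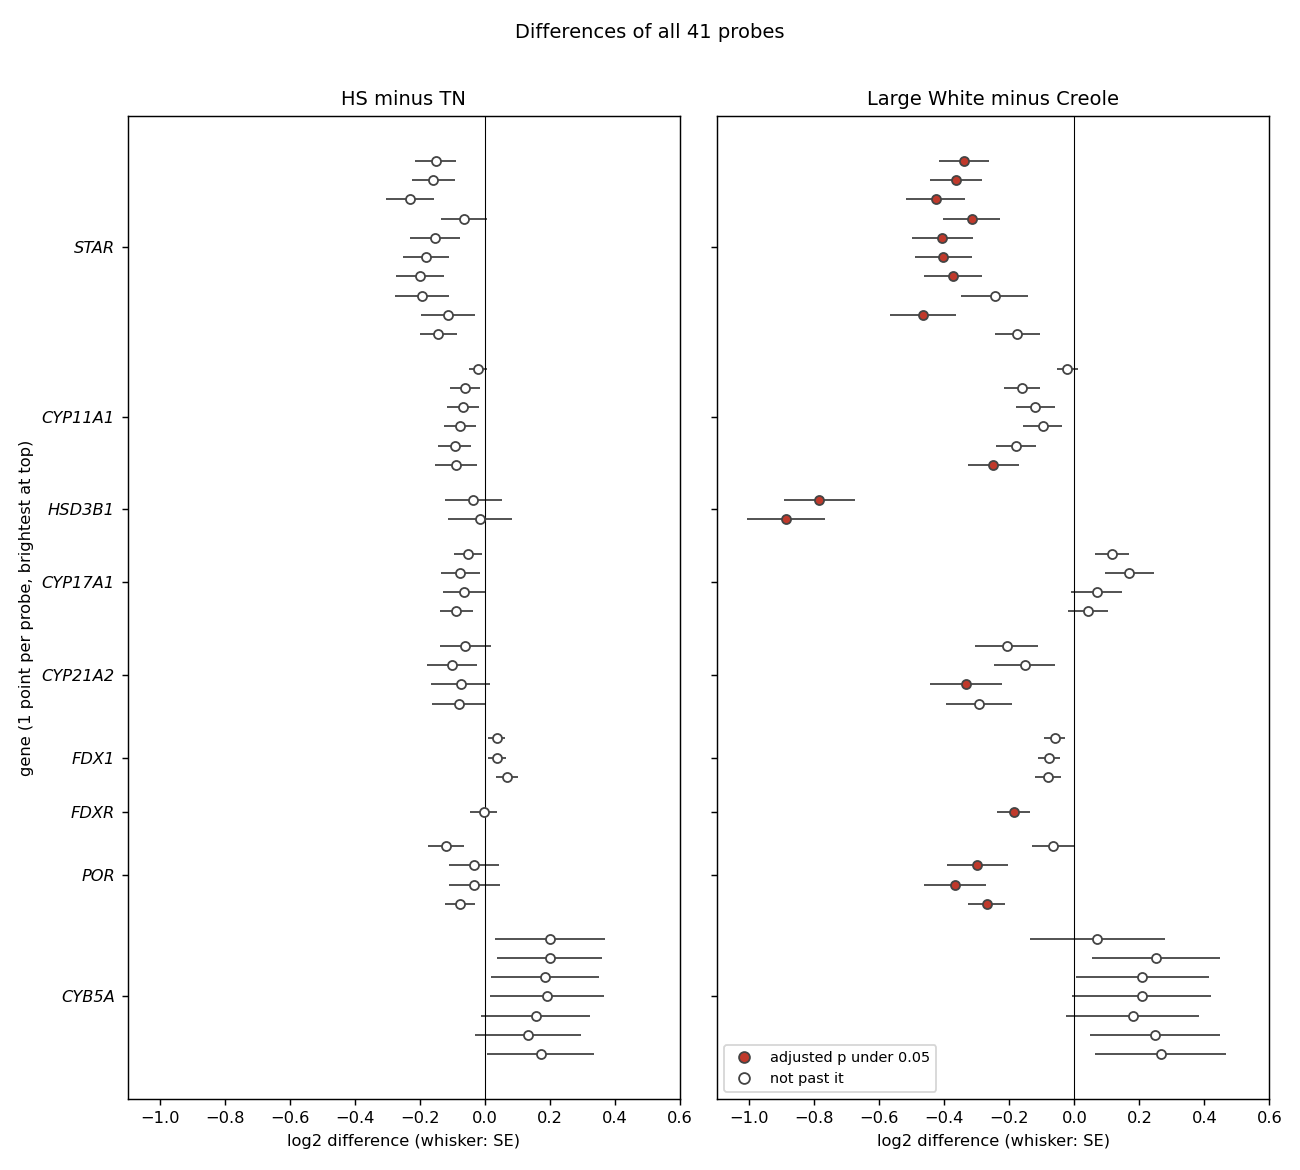
Each point is 1 of the 41 probes, with its log2 difference HS minus TN (left) and Large White minus Creole (right), whiskers for the SE and red for an adjusted p under 0.05. No probe is red on the left and 16 are red on the right, all of them below 0.

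Between temperatures, in all breeds together, none of the 41 probes passed, against 0.911% of all probes, and 9 of the 41 had an unadjusted p under 0.05, as had 6121 of the 45348. The lowest adjusted p was 0.12 (limma), and none of the 41 passed in any alternative run. The median difference, HS minus TN, was -0.06 over the 41 probes and 0.00 over all probes, with 31 of the 41 below 0. All probes of STAR, CYP11A1, CYP17A1, CYP21A2, HSD3B1 and POR were below 0, and all of FDX1 and CYB5A above.

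STAR had the largest of the values below 0. Its brightest probe ran from 17.39 to 18.19 in the 18 TN pigs and from 17.26 to 18.20 in the 18 HS pigs, so that the temperatures overlapped almost fully. The difference was -0.15 (SE 0.06, adjusted p = 0.26 from limma), with a 95% interval, not adjusted for the number of probes, from -0.28 to -0.02, and 13 of 18 HS pigs were below the TN mean of their breed. Over its 9 probes the difference ran from -0.23 to -0.06. It was below 0 on all 5 slides, at -0.21 to -0.05. The interval leaves a level at HS of 0.82 to 0.98 times that at TN.

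For the enzymes that act on the steroid itself the interval of the difference included 0. CYP11A1 differed by -0.02 (SE 0.03), CYP17A1 by -0.05 (SE 0.04), CYP21A2 by -0.06 (SE 0.08) and HSD3B1 by -0.04 (SE 0.09). The 95% intervals of these log2 differences were -0.08 to 0.03 for CYP11A1, -0.14 to 0.03 for CYP17A1, -0.22 to 0.10 for CYP21A2 and -0.22 to 0.14 for HSD3B1. Among the electron carriers FDX1 differed by 0.04 (SE 0.03), FDXR by 0.00 (SE 0.04), POR by -0.12 (SE 0.05) and CYB5A by 0.20 (SE 0.17). The interval of the brightest POR probe, from -0.23 to -0.01, left out 0 as that of STAR did, with an adjusted p of 0.30 (limma). This probe stood apart from the other 3 of POR, which differed by -0.08 to -0.03. The CYP11A1 value is that of the probe that stood apart, and the mean of the 6 CYP11A1 probes differed by -0.07 (SE 0.04, adjusted p = 0.51 from limma). Beside these, 1 of the 5 cortex markers passed: NR5A1, a nuclear receptor that drives the genes of the chain, fell by 0.25 on the log2 scale (adjusted p = 0.025 from limma). The other 3 NR5A1 probes differed by -0.24 to -0.15 and did not pass. The chromaffin list ran from 13.61 to 14.48 at TN and from 13.38 to 14.23 at HS, with no marker past the threshold, and its part in these values was not tested.

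**Figure D3:**
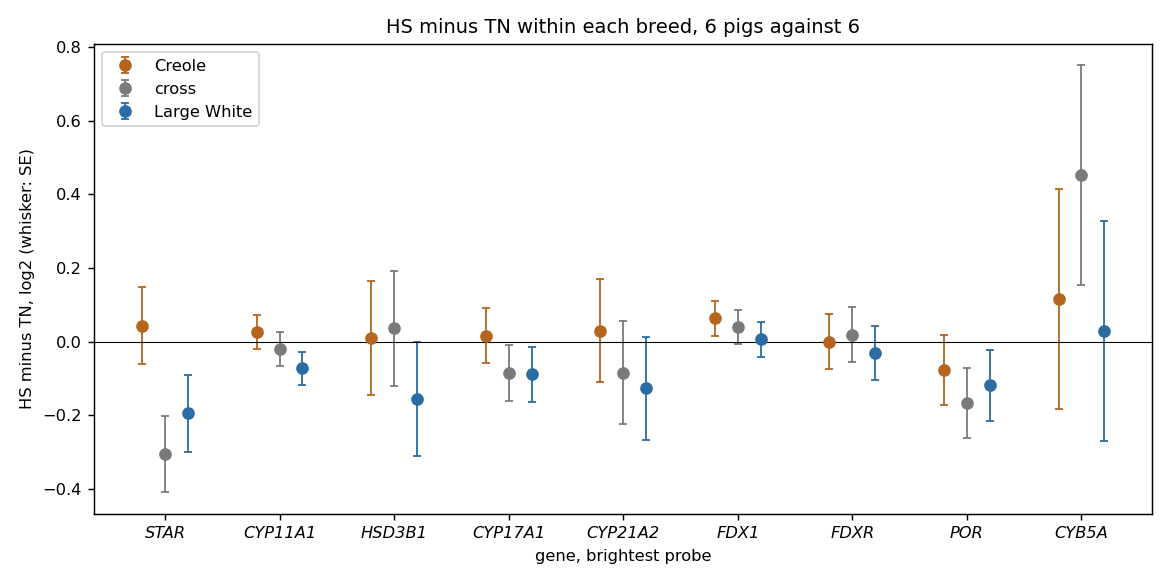
The log2 difference HS minus TN of the brightest probe of each gene is plotted within Creole, the cross and Large White (6 pigs against 6, whiskers for the SE). STAR is at 0.04 in Creole, -0.30 in the cross and -0.19 in Large White, and CYB5A has the widest errors.

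Within the breeds none of the 41 probes passed for HS minus TN, where 0% of all probes were called in Creole and in the cross and 0.0110% in Large White, nor for the interaction of breed and temperature (0% of all probes). At an unadjusted p under 0.05 there were 0 of 41 in Creole, 3 in Large White, 8 in the cross and 3 for the interaction, and among all probes 2171, 2852, 5592 and 1914. Those for the interaction were STAR probes 2, 5 and 6, of which 5 and 6 have the same sequence. Those in the cross were all of STAR except CYP17A1 probe 4. In Creole pigs STAR ran from 17.68 to 18.19 at TN and from 17.77 to 18.20 at HS, with medians of 17.88 and 17.91. In the cross it ran from 17.69 to 18.06 at TN and from 17.26 to 17.93 at HS, with medians of 17.79 and 17.44. In Large White it ran from 17.39 to 17.90 at TN and from 17.36 to 17.71 at HS, with medians of 17.77 and 17.44. The interaction for the brightest STAR probe had an unadjusted p of 0.068 and an adjusted p of 0.98 (limma), so that a difference between breeds in this response was not shown. All 9 STAR probes were below 0 in the cross and in Large White, and 3 of 9 in Creole.

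The cross was also set against the mean of its parent breeds. None of the 41 probes passed, against 0.415% of all probes, and 6 had an unadjusted p under 0.05, as had 5057 of all probes. CYP17A1 was at 0.05 (SE 0.05), STAR at -0.10 (SE 0.07), CYP21A2 at -0.14 (SE 0.08) and CYB5A at 0.28 (SE 0.18). POR was at -0.12 (SE 0.06, adjusted p = 0.42 from limma), and of the brightest probes it alone had an unadjusted 95% interval without 0, from -0.24 to -0.01. The other probes of POR were at -0.01 (probe 2), -0.04 (probe 3) and -0.12 (probe 4).

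CYB5A was the member that varied most from pig to pig. The SD of its brightest probe within groups was 0.54, above that of 96.9% of all probes, whereas it was 0.18 for STAR, 0.06 for CYP11A1 and 0.07 for FDX1, and 0.18 at the median of all probes. The other 5 CYP11A1 probes had SDs of 0.13 to 0.20. In Creole it ran from 13.08 to 13.90 at TN and from 13.27 to 14.09 at HS. In Large White it ran from 13.06 to 14.40 at TN and from 12.99 to 14.50 at HS, and in the cross from 13.01 to 14.44 at TN and from 13.05 to 15.02 at HS. There was a gap between 14.09 and 14.40, with 29 pigs below it and 7 above it, of which 5 were cross pigs, 2 Large White and none Creole, and 3 TN and 4 HS. The 7 CYB5A probes ranked the pigs alike (correlations of 0.88 to 0.99).

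The genes whose levels went most like CYB5A over the 36 pigs, by the Pearson correlation of deviations from the group means among 10195 genes with a symbol, were RDH16 (0.86), a retinol dehydrogenase of the short-chain family, SULT2A1 (0.81), the sulfotransferase of dehydroepiandrosterone, and DHRS4 (0.80), a carbonyl reductase. These are the highest of many, and a description of these arrays. On each side of the gap, where the range of CYB5A is narrower, the correlations of CYB5A with RDH16, SULT2A1 and DHRS4 were 0.48, 0.47 and 0.36 over the 29 pigs below it and 0.50, 0.54 and 0.01 over the 7 above it. SULT2A1 was well above background on 33 of the 36 arrays, and in the cross at HS it ran from 5.62 to 9.82.

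**Figure D4:**
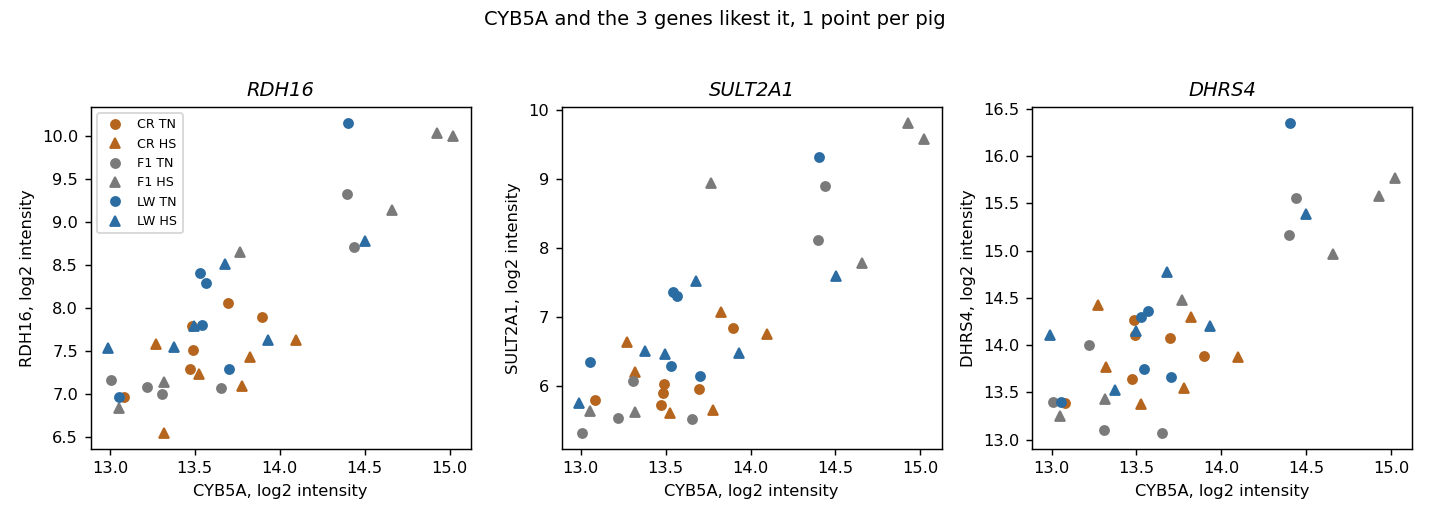
The log2 intensity of RDH16, SULT2A1 and DHRS4 is plotted against that of CYB5A, 1 point per pig, with colours for the breeds, circles for TN and triangles for HS. The 7 pigs to the right of the gap that ends at 14.40 on the CYB5A axis are cross or Large White.

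The genes most like the others were found in the same way. TMEM205 stood first for FDXR (0.90), DLG1 for CYP21A2 (0.80), IQSEC2 for CYP17A1 (0.76), RETREG1 for CYP11A1 (0.75), CCL25 for POR (0.71), CHST4 for STAR (0.69), MOBKL3 for FDX1 (0.68) and ZNF207 for HSD3B1 (0.65). CHST4 was well above background on 18 of the 36 arrays. The values for CYP11A1 and POR are those of the probes that stood apart.

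The correlation of the members with each other was taken within groups, by the brightest probe of each gene. Those of CYP11A1 and POR stood apart from the other probes of their gene. Over the 36 pairs of 9 genes, Pearson's r of the deviations from the group means ran from -0.24 for STAR and FDX1 to 0.51 for CYP21A2 and FDXR, and no pair passed after adjustment over the 36 pairs. The permutation p was lowest for CYP11A1 and CYP17A1 (r = 0.46, permutation p = 0.0024, adjusted p = 0.086). Spearman's rho for this pair was 0.53 (permutation p = 0.00083, adjusted p = 0.030), and r was 0.42 without the 2 pigs farthest from the CYP11A1 median and 0.41 with the slide removed. For CYP21A2 and FDXR, rho was 0.38, the permutation p of r was 0.010 (adjusted p = 0.13), and r was 0.39 without 2 pigs and 0.31 with the slide removed. With the slide removed the highest were STAR with FDXR (0.50) and STAR with CYP21A2 (0.48), both with an adjusted permutation p of 0.097. HSD3B1, which differed most between breeds, had an r of -0.01 with STAR within groups.

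**Figure D5:**
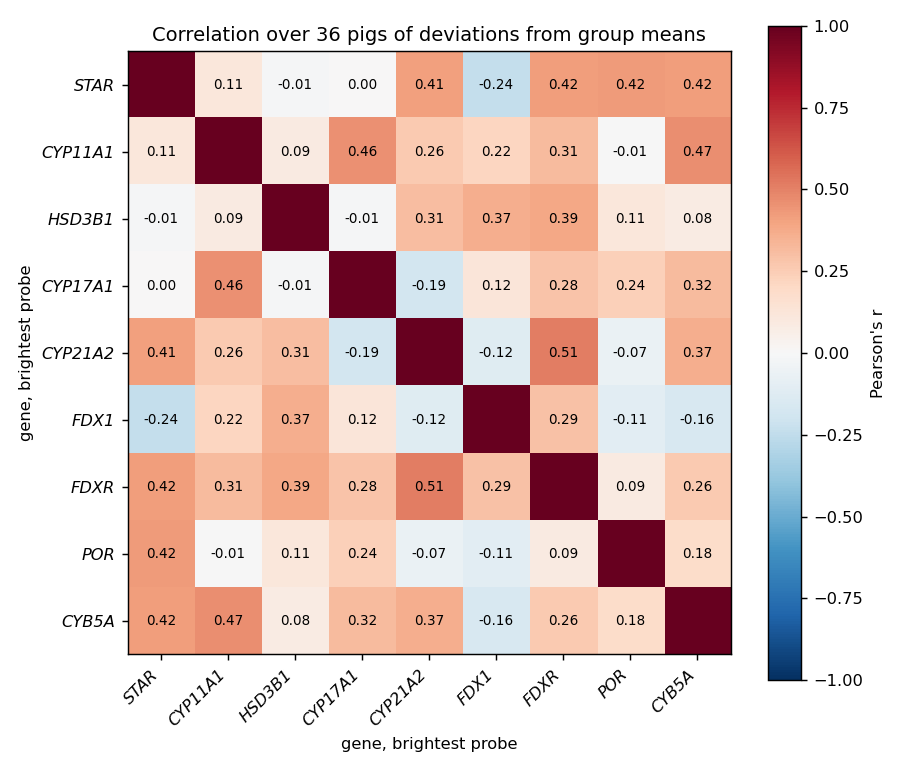
Pearson's r between the brightest probes of the 9 genes over 36 pigs, each as its deviation from the mean of its group, with red for positive and blue for negative values. The highest is 0.51 (CYP21A2 and FDXR) and the lowest -0.24 (STAR and FDX1).

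Around the chain, 42 other genes of steroid handling were listed and 34 had a probe. None passed for HS minus TN, where the median difference was -0.01. For a difference between the 3 breeds 4 of the 34 passed by their brightest probe, beside the 10.6% of all probes. HSD17B11, a 17-beta-hydroxysteroid dehydrogenase of the endoplasmic reticulum, had a mean of 10.53 ± 0.18 in Creole, 10.41 ± 0.15 in the cross and 10.17 ± 0.16 in Large White (SD, n = 12 each), and a difference of -0.36, Large White minus Creole (adjusted p = 0.000299 from limma). PGRMC2, a haem-binding membrane protein, differed by -0.28 (adjusted p = 0.00261 from limma), but 1 of its 5 probes passed for the breeds. HSD17B1, which makes oestradiol, was lower in Large White by -0.40 (adjusted p = 0.00438 from limma). HSD17B4, a peroxisomal enzyme of fatty acid oxidation, passed over the 3 breeds (adjusted p = 0.032 from limma), with means of 13.60 in Creole, 13.53 in the cross and 13.85 in Large White.

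Large White minus Creole, 4 of the 34 passed, beside 11.5% of all probes, a share near that of the list. All were lower in Large White, and the fourth beside HSD17B11, PGRMC2 and HSD17B1 was the probe named CYP11B2, singled out here after its value was seen. CYP11B2 makes aldosterone, and whether its probe also reads CYP11B1 was not determined here. The RefSeq annotation used here held no gene named CYP11B1. The CYP11B2 probe had a mean of 11.72 ± 0.29 in Creole and 11.35 ± 0.29 in Large White (SD, n = 12 each), a difference of -0.37 (adjusted p = 0.029 from limma). Its difference of -0.17, HS minus TN, did not pass. By role, 0 of 6 genes of cholesterol handling inside the cell and 0 of 11 of steroid inactivation and conjugation passed between Large White and Creole, 1 of 6 electron donors and partners, and 3 of 11 other steroid-forming enzymes.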

How the data were processed

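Adrenal RNA of 36 pigs was hybridised to 1-colour Agilent arrays, 1 per pig. The authors deposited scanner intensity files (Agilent Feature Extraction 10.10.1.1) and a value table of log2 median intensities after quantile normalization, for 45348 probes with 93 missing values. The value table was used here, and the scanner intensities as alternatives. Each probe was fitted with limma 3.58.1 (R 4.3.3), with breed and temperature as terms, or the 6 groups for contrasts within a breed and the interaction, and p-values were Benjamini-Hochberg adjusted over all 45348 probes, with 0.05 as the threshold. Father, mother, pen and slaughter day, random effects in the study's model, were not given in the labels and were left out.

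A gene's main probe was its brightest by the mean over 36 pigs. Members were named as listed, pathway genes where they passed between temperatures or breeds (at most 8), and for each member the 3 genes with the highest correlation. The members and lists were chosen with earlier results of these data known. Correlations used 100000 permutations within groups, two-sided. Alternatives were the scanner values, the 75th percentile of the processed signal, normexp (offset 50), probes above background on all arrays, the slide as a block, another variance prior, the mean of all probes of a gene, and each slide or pig left out.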

Additional observations from a re-analysis of the deposited data

Results flagged for a closer look

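In 6 groups of 6 pigs, the brightest probes of 9 genes gave 54 sets of values, and in 2 of them 1 pig lay far from the rest by the gap to its neighbour, where chance gives about 1 in 20 (2.7 of 54). STAR in F1 TN replicate 3 was at 18.06, with the other 5 pigs at 17.69 to 17.82. HSD3B1 in CR HS replicate 6 was at 17.06, with the other 5 at 16.20 to 16.49.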

How the results depend on the processing

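No member probe passed for HS minus TN, within a breed, for the interaction or for the cross against its parents under any of 48 alternatives each, 1 of them, the loss of STAR probe 10, chosen after seeing the data. With a pig or slide left out, the member probes called ran from 2 to 16 for the difference between breeds and from 5 to 19 for Large White minus Creole, lowest without slide 3. With a pig or slide left out, the calls among all probes ran from 34 to 819 for HS minus TN, 0 to 1 for the interaction, 0 to 6 in Creole, 0 to 7 in Large White, 0 to 238 in the cross, 2025 to 4897 for the difference between breeds, 2569 to 5342 for Large White minus Creole and 14 to 229 for the cross against its parents. With the slide as a fixed block they were 899 for HS minus TN, 2 for HS minus TN in Large White and 316 for the cross against its parents. HS minus TN in Large White had 0 with the processed signal and with normexp. For the covariation, 4 pairs passed with the processed signal (CYP11A1 with FDX1 and CYP21A2, and FDXR with STAR and CYP21A2), and 0 to 2 with a slide left out. The cause was not tested.

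Values near 0 changed sign. HS minus TN, FDXR was 0.0033 with normexp and -0.0347 to 0.0121 with a pig or slide left out, and HSD3B1 was -0.0762 to 0.0465. Large White minus Creole, CYB5A was -0.0158 to 0.2377. For the cross against its parents, FDXR was 0.0113 with the processed signal and -0.0379 to 0.0188 with a pig or slide left out, and HSD3B1 was -0.0027 to 0.2117. No analysis paired by litter was possible because litter was not given per pig. The number of arrays limits the precision.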
